A study of Mus musculus with 12 samples.

Results

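Nonsense-mediated decay is the quality control by which cells destroy messenger RNAs whose translation ends too early, as happens when an intron stays in the message. The 9 genes described here encode its core factors and were taken by symbol (Upf1, Upf2, Upf3a, Upf3b, Smg1, Smg5, Smg6, Smg8 and Smg9) from the 54735 gene symbols listed for every library. All 9 were found, and 8 passed the filter of a mean of at least 1 TPM (a length-scaled abundance with the same sum in every library) over the 12 libraries, so that 8 of the 11764 genes tested are decay factors. Smg9 had a mean of 0.874 TPM and was left out of the main test.

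The libraries hold total RNA of embryonic pallium, the dorsal telencephalon that gives rise to the cortex, from C57/Bl6 mouse embryos at E13.5. All embryos carried Emx1-Cre, a recombinase expressed in the progenitor cells of this tissue, so cells of other origin, such as microglia and vessels, are not targeted. Controls (4 embryos) were Rnu11wt/flx with Trp53wt/wt and thus keep 1 intact allele of Rnu11, the gene of the U11 small nuclear RNA by which the minor spliceosome finds its rare introns. The cKO embryos (4) were Rnu11flx/flx with Trp53wt/wt, and the dKO embryos (4) were Rnu11flx/flx with Trp53flx/flx, so that p53 is removed as well. The groups used hold no embryo without Cre and none that lacks Trp53 alone.

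In the decay pathway the helicase Upf1 marks a message for destruction. Upf2 and the paralogs Upf3a and Upf3b tie Upf1 to exon junction complexes left downstream of the stop codon by splicing. The kinase Smg1, held in check by Smg8 and Smg9, phosphorylates Upf1, after which Smg6 cuts the message and Smg5 helps to recruit the enzymes that remove its tail and cap. Messages of several factors, among them Upf1, Upf2, Upf3b, Smg1, Smg5 and Smg6, are known from cultured cells to be targets of the pathway themselves, so that they rise when it is blocked.

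The library labels were checked on the targeted genes. Mean Rnu11 was 640.5 ± 86.4, 144 ± 20.4 and 164 ± 26.3 TPM in the control, cKO and dKO embryos, and mean Trp53 3.82 ± 1.73, 4.24 ± 0.404 and 1.22 ± 0.252 TPM (SD, 4 embryos each). Defining pallial markers were present in all groups, though 2 of 6 were called lower in each mutant against control (median change -0.39 in cKO and -0.12 in dKO). The same centred test, described below, called 6.68% of all tested genes in cKO and 8.43% in dKO against control, in either direction. The 6 genes (Emx1, Emx2, Pax6, Lhx2, Tbr1 and Eomes) summed to between 55.2 and 88.2 TPM per control embryo. Their sums were between 55.1 and 75.4 TPM per cKO embryo and 52.1 and 73.2 per dKO embryo. The share of nuclear protein-coding genes in the TPM of a library ran from 14.4% to 19.99%, and depth is unknown because TPM keeps no read counts. The typical gene moved as well: over all tested genes the median log2 change as deposited was 0.25 between cKO and control, -0.01 between dKO and control and -0.26 between dKO and cKO. With libraries rescaled to equal sums of protein-coding genes these medians were 0.118, 0.0377 and -0.0771, so that share covered only part of the shift. Each library was therefore centred on the typical gene (its median log2 difference from the mean library, -0.16 to 0.32, was subtracted), and "rose" and "fell" below refer to that scale. Single TPM values are given as deposited. No library stood far from its group over all tested genes, the lowest mean correlation with its own group being 0.956 for dKO embryo 2.

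Relative to the typical gene, 1 of the decay factors, Smg8, passed the test, in the comparisons that involve dKO. In limma on centred log2(TPM + 1), with Benjamini-Hochberg adjustment over all tested genes, 0 of the 8 tested members passed an adjusted p of 0.05 for cKO against control, where 6.68% of all tested genes did. For dKO against control 1 of 8 passed, where 8.43% of all tested genes did (3.74% higher). Comparing the mutants, 1 of 8 passed, where 5.93% did (2.1% higher). In both cases the gene was Smg8, which was higher in dKO. As deposited the members called were 3, 0 and 5 of 8, against 35.4%, 5.19% and 39.4% of all tested genes, and with libraries rescaled to equal sums of protein-coding genes 1, 1 and 2, against 13.1%, 9.18% and 9.68%. In cKO against control Upf1, Upf2, Upf3b, Smg5 and Smg8 had small negative changes when centred and positive ones as deposited (0.11 to 0.23), none of them called. At an unadjusted p under 0.05 the counts were 1, 3 and 3 of 8, against 21.6%, 24.5% and 23.4% of all tested genes. The median change of the members was -0.04, -0.08 and -0.09 in the same order, and the medians of all tested genes on the centred scale were -0.00343, 0.00505 and 0.0106. The comparisons share groups, and each is given by its own values.

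**Figure D1:**
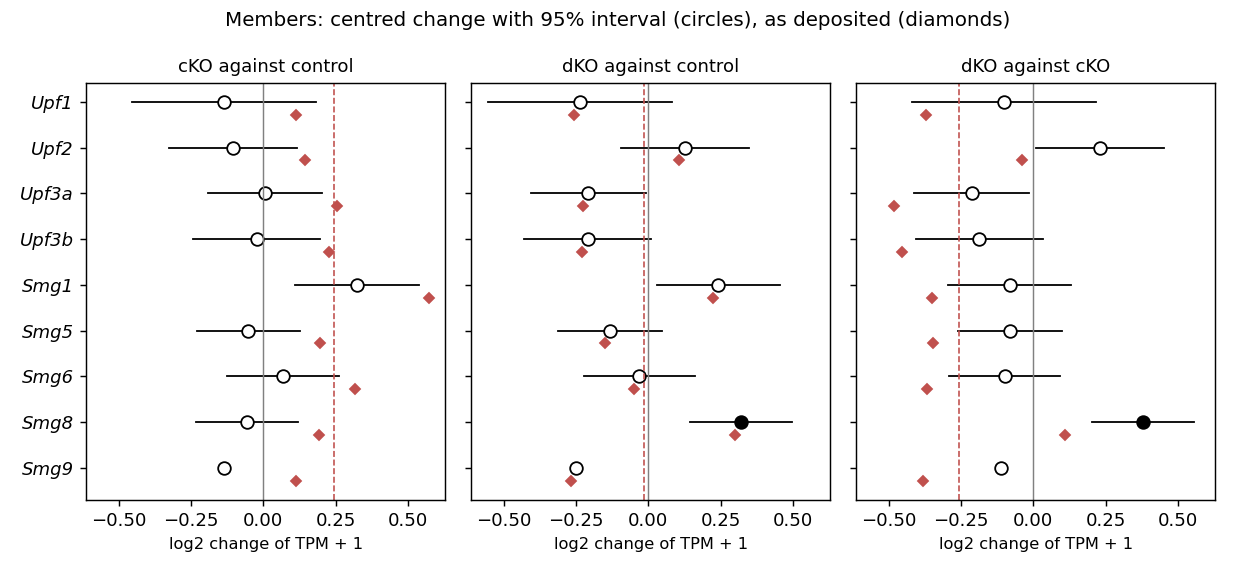
Log2 change of TPM + 1 (x axis) of each member in the 3 comparisons. Circles are centred changes with their 95% interval from limma (filled where the adjusted p is under 0.05, no interval for Smg9, which was not tested), red diamonds are changes as deposited, and the dashed red line is the median of all tested genes as deposited. Filled circles appear for Smg8 in dKO, at 0.32 and 0.38. In cKO the diamonds lie around the dashed line at 0.25, and that of Smg1 lies at 0.57.

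Bulk libraries do not tell fewer cells of a type from less RNA per cell. Levels of several cell type markers differed between the groups. The 8 microglia markers summed to 11.7 to 14.0, 43.2 to 63.8 and 13.2 to 18.8 TPM in the control, cKO and dKO embryos, with 6 of the 7 tested called higher in cKO against control and 5 lower in dKO against cKO. The 7 neuron markers summed to 225 to 254, 305 to 375 and 158 to 233 TPM in that order. Of these 1 was called higher in cKO against control, 2 lower in dKO against control and 3 lower in dKO against cKO. The 7 vessel markers summed to 9.98 to 12.8, 19.6 to 25.6 and 12.2 to 20.2 TPM. Of the 6 tested 3 were called higher in cKO and 1 in dKO against control. The 7 markers of cycling progenitors summed to 262 to 312, 229 to 328 and 198 to 239 TPM. Against control 2 of these were called lower in cKO and 1 in dKO (median changes -0.28 and -0.32). Sums are as deposited and carry the common shift. Calls are on the centred scale, where 6.68%, 8.43% and 5.93% of all tested genes were called in the 3 comparisons. No marker of these lists was at 0 in all libraries. Their part in the values of the decay factors was not tested.

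Levels are compared between genes here on the TPM scale, which is per length. In control Upf3b (11.4 ± 0.627 TPM) and Smg1 (10.2 ± 1.08) were the most abundant members, and their embryos overlapped. Smg5 followed at 7.58 ± 0.773 TPM, below every embryo of the first pair. Upf1 (4.35 ± 0.907), Smg8 (3.29 ± 0.335), Upf2 (2.92 ± 0.454) and Upf3a (2.75 ± 0.151) came next, each overlapping its neighbour in the order. Smg6, the endonuclease, stood at 2.19 ± 0.101 TPM and Smg9 lowest at 0.934 ± 0.230 (SD, n = 4 for all). The 9 members together summed to 45.6 ± 1.80, 57.6 ± 4.62 and 44.4 ± 1.11 TPM in the control, cKO and dKO embryos (SD, 4 embryos each). Smg1 made up 22.3%, 27.1% and 27.2% of the mean sum in the same order, and its mean was above that of Upf3b in both mutants, where the embryos of the pair overlapped as in control.

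**Figure D2:**
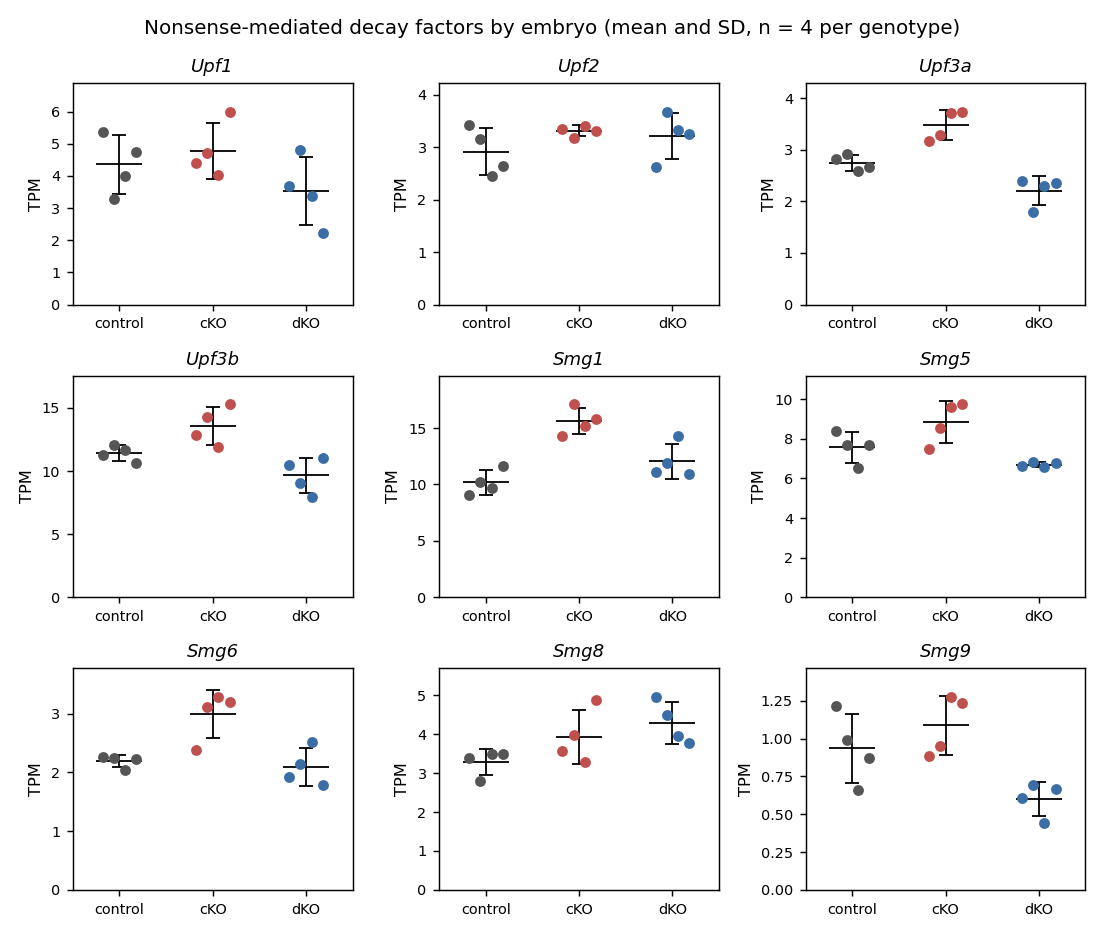
TPM as deposited (y axis, from 0) of the 9 members in each embryo. Points are embryos, black lines the mean and SD of the 4 embryos of a genotype. All cKO points of Smg1 (14.3 to 17.1) lie above all control points (9.09 to 11.6), and all dKO points of Smg8 (3.77 to 4.96) lie above all control points (2.80 to 3.50).

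Smg8 was the member that passed the test. Its protein binds Smg1 together with Smg9 and keeps the kinase inactive. The control embryos 1 to 4 had 3.38, 2.80, 3.49 and 3.50 TPM, the cKO embryos 3.58, 3.97, 3.28 and 4.89, and the dKO embryos 4.96, 4.50, 3.96 and 3.77. All dKO embryos lay above all controls, whereas cKO overlapped with both other groups on this scale; after centring all dKO embryos also lay above all cKO embryos. Such separation upward held for 6.86% of all tested genes between dKO and control and 7.32% between the mutants. Smg8 rose in dKO by 0.32 ± 0.0810 (log2, SE) against control (limma adjusted p = 0.0323) and by 0.38 ± 0.0810 against cKO (limma adjusted p = 0.0204). On the TPM scale as deposited its dKO mean was 131% of control. In cKO against control its change was -0.06, with a 95% interval of -0.23 to 0.12.

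The call of Smg8 was close to the threshold. As deposited its change was 0.30 against control (limma adjusted p = 0.142) and 0.11 against cKO (adjusted p = 0.429), and neither passed. Over 18 alternatives the adjusted p against control ran from 0.0129 to 0.24 and passed in 8, and that against cKO ran from 0.0164 to 0.429 and passed in 11. The call against control was lost without any single control embryo and without dKO embryo 1 or 2, with limma adjusted p up to 0.0844, while the change stayed between 0.25 and 0.36. The call against cKO was lost without cKO embryo 1, 2 or 3, with limma adjusted p up to 0.0631 and a change of 0.31 to 0.42 over all left-out embryos.

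The gene lies on chromosome 11 (87077732 to 87086774, minus strand, GENCODE M21 on GRCm38, the same assembly as mm10). Its main transcript has 4 exons and a 3′ untranslated region of 221 nt, the shortest of the members. A processed pseudogene on the opposite strand, Gm9378, overlaps 471 bp of it and stood at 0.177 to 0.972 TPM. Among 2015 tested genes of at most 4 exons the median centred change in dKO was 0.04 against control and 0.06 against cKO. The shares called higher were 4.07% and 2.83%. A part of exon number in the change of Smg8 was not tested.

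Smg1 encodes the kinase. The control embryos 1 to 4 had 9.09, 10.3, 9.72 and 11.6 TPM, the cKO embryos 14.3, 17.1, 15.2 and 15.8, and the dKO embryos 11.1, 11.9, 14.3 and 10.9. Each cKO embryo exceeded each control, also after centring, and dKO overlapped with control. Of the members, Smg1 was the only one whose cKO and control embryos did not overlap after centring, a separation upward that 8.74% of all tested genes showed. Its mean TPM in cKO was 153% of control, the largest ratio among the members, and in dKO 119%. The centred change was 0.32 in cKO against control, with a 95% interval of 0.11 to 0.54, and did not pass (limma adjusted p = 0.0746). It was 0.24 in dKO against control (interval 0.03 to 0.46, limma adjusted p = 0.153) and -0.08 in dKO against cKO (interval -0.30 to 0.13, limma adjusted p = 0.653).

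The call of Smg1 in cKO depended on the scaling. It passed as deposited, at 0.57 (limma adjusted p = 0.00221), and with protein-coding rescaling, at 0.43 (adjusted p = 0.03). Over 19 alternatives its change ran from 0.26 to 0.57 and its adjusted p from 0.00221 to 0.186, passing in 3. Smg1 is by far the longest member, on chromosome 7 (118131308 to 118243670, minus strand), with 63 exons, a main transcript of 15557 nt and a 3′ untranslated region of 4233 nt, longer than in 93.9% of 10035 protein-coding genes tested. Long transcripts as a class lay above the typical gene in cKO. The 213 tested genes with a transcript of at least 10000 nt had a median centred change of 0.10 in cKO against control. In dKO against control their median was 0.01, where Smg1 stood at 0.24, and in dKO against cKO it was -0.09. For the 726 tested genes with the longest 3′ untranslated regions, Smg1 among them, the medians were 0.03, 0.02 and -0.01 in that order. Whether length bears on the change of Smg1 was not tested. The genes whose levels followed Smg1 most closely over the 12 libraries, among 5802 with a mean of at least 5 TPM, were Vcan (Pearson r = 0.897), Pde4dip (0.876) and Tmem161b (0.868), described without a test.

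The promoters of the member that passed the test and of the member highest in cKO are printed for reference, from RefSeq on GRCm38.p6, each covering 250 bases before and 50 after the annotated gene start (Smg8, chr11:87086728-87087027; Smg1, chr7:118243588-118243887; both minus strand). Capitals mark matches, on either strand, to the GC box GGGCGG and to CCAAT.
Smg8: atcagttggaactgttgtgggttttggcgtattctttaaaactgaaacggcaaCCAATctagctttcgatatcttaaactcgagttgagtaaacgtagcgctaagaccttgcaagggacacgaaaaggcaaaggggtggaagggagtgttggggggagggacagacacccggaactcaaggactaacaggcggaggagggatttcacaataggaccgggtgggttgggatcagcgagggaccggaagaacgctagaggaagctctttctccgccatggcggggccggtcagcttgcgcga
Smg1: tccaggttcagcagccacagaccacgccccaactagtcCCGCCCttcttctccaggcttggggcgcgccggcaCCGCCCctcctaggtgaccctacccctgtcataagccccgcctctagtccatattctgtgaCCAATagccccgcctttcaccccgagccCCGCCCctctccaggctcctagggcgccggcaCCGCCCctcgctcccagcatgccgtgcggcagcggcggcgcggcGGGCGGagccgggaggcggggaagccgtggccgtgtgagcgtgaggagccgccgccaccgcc
The Smg1 window held 5 GC boxes, 1 CCAAT, 30 CpG dinucleotides and 72.0% G and C, and the Smg8 window 0 GC boxes, 1 CCAAT, 18 CpG and 53.3%. All 9 members matched a window. Of 32851 windows of the same length, 35.7% held a GC box and 37.4% a CCAAT, and the median window had 7 CpG, against 18 to 47 in the members. TATAAA, the ETS motif CCGGAAGT and the p53 motif RRRCWWGYYY (R is A or G, W is A or T, Y is C or T) were searched as well, on both strands and allowing overlaps. They were in no member's window, against 13.6%, 3.89% and 8.36% of all windows. These are matches of letters only.

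Smg9, the partner of Smg8 on the kinase, had 1.21, 0.988, 0.663 and 0.872 TPM in controls 1 to 4, 0.887, 0.951, 1.27 and 1.24 in cKO and 0.609, 0.690, 0.440 and 0.663 in dKO. As deposited all dKO embryos lay below all cKO embryos, and after centring they overlapped. With the filter set to 0.5 TPM, chosen after the data were seen so that the gene could be tested, its changes were -0.13, -0.25 and -0.12 in cKO against control, dKO against control and dKO against cKO (limma adjusted p = 0.511, 0.158 and 0.52). With no filter, where the centring leaves the common shift in place, the last was -0.35 and passed (limma adjusted p = 0.0312). Smg8 had 2.57 to 5.26 times the TPM of Smg9 in the control and cKO embryos and 5.69 to 8.996 times in the dKO embryos, without overlap. This ratio was noticed in the data and was not tested.

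The helicase Upf1 ranged over 3.29 to 5.37 TPM among controls, 4.02 to 5.99 among cKO and 2.23 to 4.82 among dKO embryos, and all groups overlapped. Its centred changes were -0.14, -0.24 and -0.10 in the 3 comparisons (95% intervals -0.45 to 0.18, -0.56 to 0.08 and -0.42 to 0.22), so changes of this size in either direction were not resolved. Upf2, the adaptor, ranged over 2.45 to 3.42 TPM among controls, 3.16 to 3.41 among cKO and 2.61 to 3.67 among dKO embryos. Its changes were -0.10, 0.13 and 0.23 (intervals -0.33 to 0.12, -0.10 to 0.35 and 0.01 to 0.45; limma adjusted p = 0.617, 0.494 and 0.196). Upf2 and Smg8 were the members with a positive change in dKO against cKO on this scale, and as deposited Upf2 stood at -0.04.

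The paralogs Upf3a and Upf3b are adaptors to the exon junction complex. Their mean TPM was lowest in dKO, as were the means of Upf1, Smg5, Smg6 and Smg9. Upf3a had 2.83, 2.92, 2.59 and 2.66 TPM in controls 1 to 4, 3.18, 3.30, 3.71 and 3.74 in cKO and 2.39, 1.80, 2.31 and 2.36 in dKO. The 3 groups did not overlap as deposited, with cKO highest and dKO lowest. After centring dKO still lay below both other groups, a separation downward that 7.28% of all tested genes showed against control and 7.38% against cKO, while cKO and control overlapped. The centred changes of Upf3a were 0.01 in cKO against control, -0.21 in dKO against control and -0.21 in dKO against cKO, and none passed (limma adjusted p = 0.977, 0.184 and 0.183). As deposited Upf3a was called higher in cKO against control (0.26, limma adjusted p = 0.0323) and lower in dKO against cKO (-0.48, adjusted p = 0.00156), and the latter also with protein-coding rescaling (-0.32, adjusted p = 0.0409). Over 18 alternatives the adjusted p of the latter ran from 0.00156 to 0.371.

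Upf3b, on chromosome X, had 11.3, 12.1, 11.7 and 10.6 TPM in controls 1 to 4, 12.8, 14.2, 11.9 and 15.3 in cKO and 10.5, 9.08, 7.97 and 11.1 in dKO. The mutants did not overlap with each other as deposited, and dKO overlapped with control. Its centred changes were -0.02, -0.21 and -0.19 (limma adjusted p = 0.925, 0.228 and 0.29; intervals -0.24 to 0.20, -0.43 to 0.01 and -0.41 to 0.03). As deposited the change of dKO against cKO passed (-0.46, limma adjusted p = 0.00665; 0.00665 to 0.555 over 19 alternatives). Upf3a made up 0.198 to 0.311 of the level of Upf3b in every embryo, with all 3 groups overlapping.

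The effectors Smg5 and Smg6 showed no change relative to the typical gene that passed the test. Smg5 ranged over 6.54 to 8.41 TPM among controls, 7.49 to 9.74 among cKO and 6.56 to 6.83 among dKO embryos. Its changes were -0.05, -0.13 and -0.08, with 95% intervals of -0.23 to 0.13, -0.31 to 0.05 and -0.26 to 0.10. Smg6 ranged over 2.04 to 2.27 TPM among controls, 2.38 to 3.28 among cKO and 1.79 to 2.52 among dKO embryos. Its cKO embryos lay above all controls as deposited and overlapped with them after centring, where its changes were 0.07, -0.03 and -0.10 (intervals -0.12 to 0.26, -0.22 to 0.16 and -0.29 to 0.09). Srr, on the opposite strand, overlaps 126 bp of Smg6 and stood at 4.42 to 10.2 TPM; whether the counting used strand is not given in the sources used here.

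The 6 members known as feedback targets (Upf1, Upf2, Upf3b, Smg1, Smg5 and Smg6) were all tested. On the centred scale 0 of 6 were called by limma in each of the 3 comparisons, and 1 of 6 had an unadjusted p under 0.05 in each. Of all tested genes 6.68%, 8.43% and 5.93% were called in cKO against control, dKO against control and dKO against cKO. An unadjusted p under 0.05 was reached by 21.6%, 24.5% and 23.4% of all tested genes. The median change of the 6 members was -0.04 in cKO against control, -0.08 in dKO against control and -0.09 in dKO against cKO. As deposited 2 of 6 (Smg1 and Smg6) were called higher in cKO against control, where 34.3% of all tested genes were, and 4 of 6 (Upf3b, Smg1, Smg5 and Smg6) lower in dKO against cKO, where 38.8% were. In annotated structure 2 of 9 members (22.2%) have an upstream open reading frame with its stop before the main start codon, against 43.0% of protein-coding genes tested, and 3 of 9 (Smg1, Smg5 and Smg6) have an annotated transcript of the nonsense-mediated decay class, against 30.6%. The 2 with an upstream reading frame were Smg5 and Smg9. The median 3′ untranslated region was 958 nt over all 9 members and 1030 nt in those genes. By feedback target it was 958 nt in Upf1, 1261 in Upf2, 834 in Upf3b, 4233 in Smg1, 1230 in Smg5 and 1498 in Smg6. The remaining members had 719 nt (Upf3a), 221 (Smg8) and 400 (Smg9).

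Among 11 other surveillance factors (Dhx34, Nbas, Ruvbl1, Ruvbl2, Gspt1, Gspt2, Etf1, Ncbp1, Ncbp2, Pabpc1 and Pnrc2; 10 tested) and 10 proteins of or bound to the exon junction complex (Eif4a3, Magoh, Magohb, Rbm8a, Casc3, Rnps1, Pym1, Acin1, Sap18 and Pnn; all tested), 0 were called by limma on the centred scale in any comparison. Of all tested genes 6.68%, 8.43% and 5.93% were called there in cKO against control, dKO against control and dKO against cKO. As deposited 2 surveillance factors and 1 junction protein were called higher in cKO against control (34.3% of all tested genes). In dKO against control 0 and 0 were called (5.19% in either direction), and 2 and 3 lower between the mutants (38.8%). At an unadjusted p under 0.05 the counts on the centred scale were 2, 1 and 2 for the surveillance factors, in the order above. For the junction complex they were 0, 1 and 1, and 21.6%, 24.5% and 23.4% of all tested genes reached it. The median changes were -0.10, -0.03 and 0.07 for the surveillance factors and 0.01, 0.03 and 0.04 for the junction complex. As deposited they were 0.15, -0.05 and -0.20, and 0.25, 0.01 and -0.23.

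Of 16 enzymes and cofactors of general RNA decay 15 were tested, and on the centred scale 1 was called higher and 0 lower in each comparison, against 6.68%, 8.43% and 5.93% of all tested genes called in either direction. As deposited 5 were called higher in cKO against control, where 34.3% of all tested genes were. In dKO against control 1 was called higher (5.19% of all tested genes in either direction). Between the mutants 1 was called higher and 2 lower, where 38.8% of all tested genes were called lower. On the centred scale the gene called in both comparisons with control was Dcp2, the catalytic subunit of the decapping enzyme. Dcp2 had 4.47, 3.39, 4.28 and 4.00 TPM in controls 1 to 4, 7.91, 10.8, 9.59 and 10.3 in cKO and 8.23, 8.35, 6.85 and 6.40 in dKO, so that all mutants lay above all controls. This separation upward also held after centring, where 8.74% of all tested genes showed it in cKO and 6.86% in dKO. Dcp2 rose by 0.83 ± 0.0911 (log2, SE) in cKO (limma adjusted p = 0.000183) and by 0.76 ± 0.0911 in dKO (limma adjusted p = 0.000591). It passed in all 19 alternatives of each. Its partners Dcp1a and Dcp1b were not called on the centred scale. Dcp1b, singled out after its values were seen, had 1.57 to 1.82 TPM in cKO and 0.795 to 1.07 in dKO, without overlap on either scale. After centring 7.38% of all tested genes separated downward between the mutants. The change of Dcp1b between the mutants was -0.23 centred (limma adjusted p = 0.112). It passed as deposited (-0.50, limma adjusted p = 0.00202) and with protein-coding rescaling (-0.38, limma adjusted p = 0.0219). Between the mutants the called gene was Cnot6l, a deadenylase subunit of the CCR4-NOT complex, with 9.64, 10.1, 7.80 and 9.89 TPM in cKO and 13.2, 12.4, 11.5 and 10.9 in dKO. Cnot6l rose by 0.60 ± 0.102 in dKO against cKO (log2, SE; limma adjusted p = 0.0068; 0.00462 to 0.0275 over 19 alternatives). As deposited its change was 0.33. The list medians were -0.02, 0.01 and 0.05. As deposited these were 0.23, -0.01 and -0.22.

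**Figure D3:**
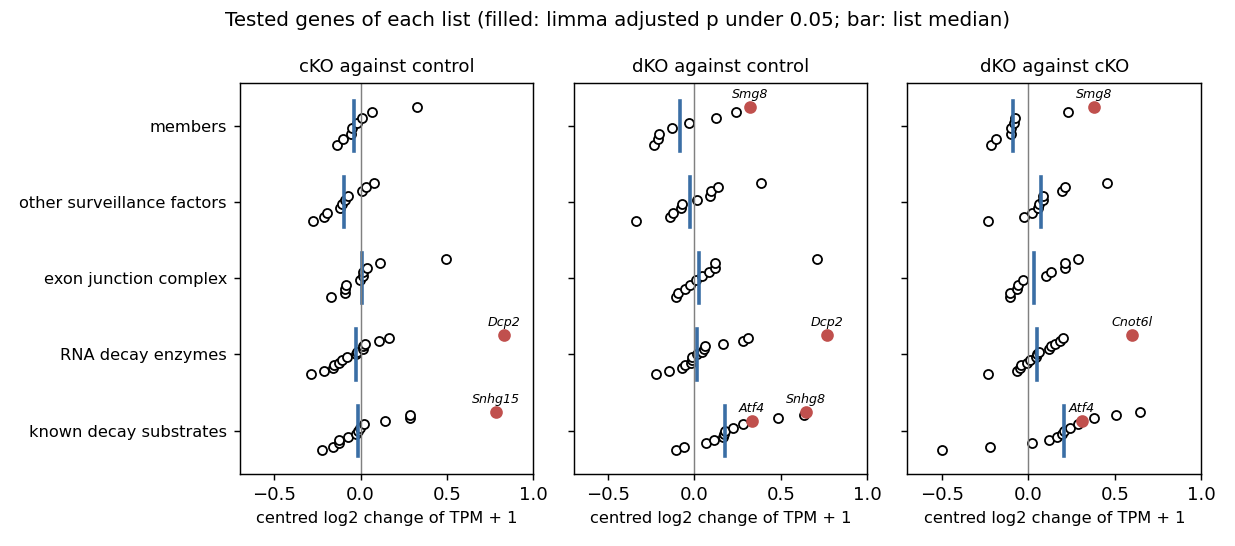
Centred log2 change of TPM + 1 (x axis) of every tested gene of the members and the 4 related lists in the 3 comparisons. Filled red points passed an adjusted p of 0.05 in limma, open points did not, and blue bars are list medians. Dcp2 lies at 0.83 in cKO and 0.76 in dKO, apart from the other decay enzymes, and the medians of the known substrates lie at 0.18 and 0.21 in the comparisons that involve dKO (0.04 and 0.02 without dKO embryo 1).

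Known substrates of the pathway, 16 transcripts of which 13 were tested, are snoRNA host RNAs and stress response genes that carry features read as early stops. In cKO against control 1 was called higher and 0 lower, in dKO against control 2 and 0, and in dKO against cKO 1 and 0. Of all tested genes 6.68%, 8.43% and 5.93% were called in either direction. The median change of the substrates was -0.01, 0.18 and 0.21, and 5, 11 and 11 of the 13 had a positive change. The medians that involve dKO rested on dKO embryo 1: without it they were 0.04 and 0.02, with 9 and 8 of 13 positive. That embryo was the highest dKO embryo for Snhg1 (64.2 TPM against 21.8 to 24.6), Gas5 (149 against 91.0 to 96.6), Zfas1 (21.1 against 10.8 to 12.5) and Gadd45a (6.58 against 3.20 to 3.81), genes singled out after their values were seen. As deposited the medians were 0.23, 0.16 and -0.06, so the direction between the mutants depended on the scaling. On that scale 4 were called higher in cKO against control, where 34.3% of all tested genes were. For dKO against control 1 was called higher (5.19% of all tested genes in either direction). Between the mutants 0 were called higher and 2 lower, where 38.8% of all tested genes were called lower. Snhg15, a snoRNA host, had 7.40, 7.61, 8.47 and 7.46 TPM in controls 1 to 4, 14.6, 17.1, 16.5 and 19.4 in cKO and 16.5, 9.13, 7.38 and 7.04 in dKO, where embryo 1 stood apart at the cKO level. It rose by 0.78 ± 0.197 in cKO (log2, SE; limma adjusted p = 0.0351), a call lost without any single embryo of either group (adjusted p up to 0.0857). As deposited it passed, at 1.03.

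Snhg8, another host, had 32.7, 34.7, 37.3 and 32.8 TPM in controls 1 to 4, 39.4, 44.7, 46.0 and 52.0 in cKO and 72.9, 53.3, 45.1 and 46.8 in dKO. All dKO embryos lay above all controls, a separation upward that 6.86% of all tested genes showed after centring, and embryo 1 was highest. It rose by 0.65 ± 0.136 in dKO against control (log2, SE; limma adjusted p = 0.0141) and passed in all 19 alternatives, without dKO embryo 1 too. Atf4, a transcription factor of the integrated stress response whose message carries upstream reading frames, had 15.2, 11.4, 12.96 and 13.4 TPM in controls 1 to 4, 13.9, 16.8, 14.8 and 19.4 in cKO and 18.8, 16.7, 15.6 and 15.5 in dKO. All its dKO embryos lay above all controls (6.86% of all tested genes separated upward after centring), and as deposited they overlapped with cKO. It rose in dKO by 0.33 ± 0.0823 against control (limma adjusted p = 0.0296) and by 0.31 ± 0.0823 against cKO (limma adjusted p = 0.0467). As deposited these were 0.31 (adjusted p = 0.143) and 0.04 (adjusted p = 0.774), and the call against cKO was lost without any single embryo of either mutant. Among the members, Smg8 was called higher in the same comparisons, where 3.74% and 2.1% of all tested genes were. Both comparisons share the dKO embryos, and a link between Smg8 and Atf4 was not tested.

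**Figure D4:**
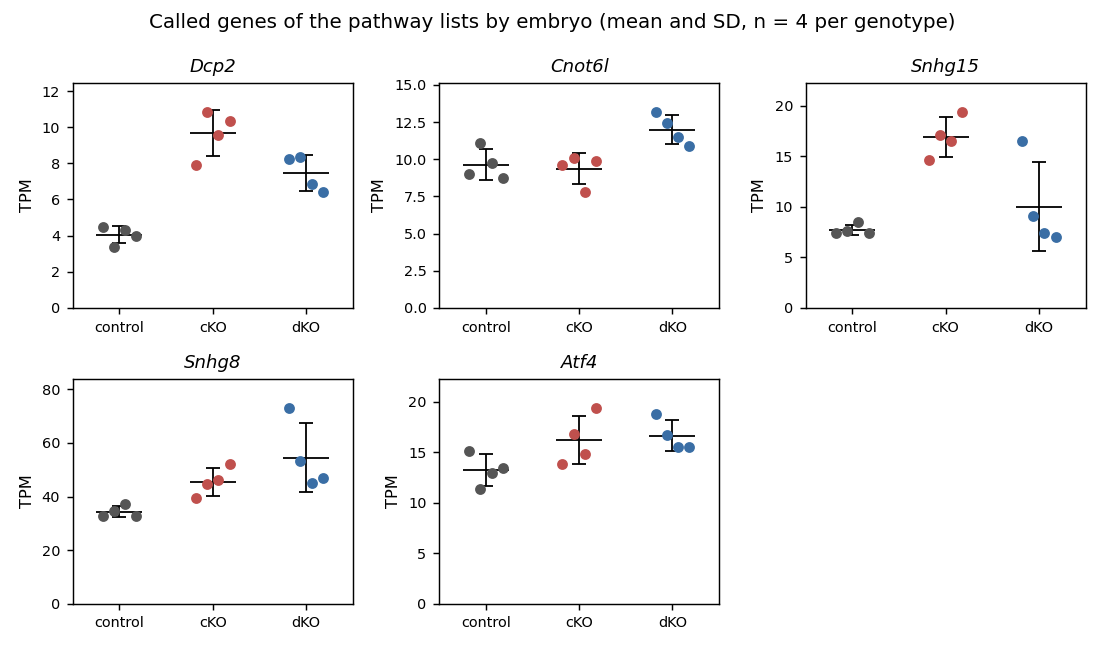
TPM as deposited (y axis, from 0) in each embryo of the 5 genes called in the related lists. Points are embryos, black lines the mean and SD of the 4 embryos of a genotype. Dcp2 lies at 3.39 to 4.47 in control and at 6.40 to 10.8 in both mutants, and dKO embryo 1 is the highest dKO point of Snhg15 (16.5) and Snhg8 (72.9).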

How the data were processed

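The authors deposited a table of TPM by gene symbol for each of the 12 embryos, a unit read from the values, which are fractional and sum to 1000000 in every library. Alignment with HISAT2 and the mm10 build are named in the submitters' processing notes; the quantification tool, the annotation and the treatment of shared or opposite-strand reads are not given in the sources used here. Stranded total RNA libraries were sequenced, per the labels. Values were analysed as log2(TPM + 1), which understates changes at low TPM, with limma 3.58.1 in R 4.3.3 (lmFit, eBayes with an intensity trend) over 11764 genes whose mean reached 1 TPM, after median-shift centring, in 1 fit of all 3 groups; Benjamini-Hochberg adjusted p under 0.05 was called. Tested on simulated data for cKO against control (11764 genes), it recovered 188 of 200 genes changed by 1 (log2) with 17 false calls. The same counts held with a planted common shift of 0.25, and without centring that shift gave 5636 false calls. Centring removes a planted common shift by construction, so these counts do not tell whether the shift in the data is technical. The planted change of 1 exceeds every centred change of a member, and recovery of smaller changes was not tested. The members, the lists and the main scaling were chosen with earlier results of these data known. A gene each of the pallial marker and surveillance lists is not reported here and was left out of all list values.

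Named are all members, Rnu11, Trp53, and, per related list and comparison, the 2 called genes of largest change whose groups do not overlap; for the 3 tested members of largest change in cKO, the 3 most correlated genes were sought. For Upf1 these were Tnrc18, Scrib and Usp21 (Pearson r 0.921, 0.911 and 0.905) and for Upf2 Mettl23, Gm25395 and Phf21a (0.909, 0.903 and 0.897). Gene models are from GENCODE M21, in which 54106 symbols were found, and main transcripts were chosen by APPRIS rank, support level and length. Marker lists of ventral telencephalon, erythroid, choroid plexus and mesenchyme cells gave summed TPM, from control to dKO, of 1.73 to 2.45, 3.43 to 5.29 and 1.68 to 3.73; 1917 to 2833, 2292 to 3144 and 2048 to 2696; 40.9 to 98.3, 72.0 to 244 and 64.3 to 284; and 22.7 to 39.4, 40.9 to 49.1 and 35.8 to 52.5. Plots were drawn with matplotlib 3.10.9.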

Additional observations from a re-analysis of the deposited data

Results flagged for a closer look

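The most extreme embryo of each group of 4 was compared with the others by Dixon's ratio (its gap to the closest embryo over the whole spread), for 9 members in 3 groups. In 1 of 27 groups the ratio passed the 95% critical value, where chance gives 1.35. This was Upf3a in dKO, with a ratio of 0.865: embryo 2 had 1.80 TPM, and the remaining embryos had 2.31 to 2.39. Without that embryo the centred change of Upf3a was -0.13 against control (limma adjusted p = 0.355) and -0.13 against cKO (limma adjusted p = 0.341), compared with -0.21 in both with it.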

How the results depend on the processing

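Alternatives changed the scaling, the pseudocount (0.1), the filter, the samples in the fit, the replicate number as a block, or sample weights, or left out each embryo in turn; median-ratio scaling (each library divided by 1 factor before the log) and the filter at 0.5 TPM were chosen after seeing the data. Members called (main values 0, 1 and 1 for cKO against control, dKO against control and dKO against cKO) numbered 3, 0 and 5 as deposited, 1, 1 and 2 with protein-coding rescaling, 1, 0 and 6 without a filter (9 members tested; 11.7%, 1.55% and 23.7% of all genes were called there), and 0, 0 and 0 with a mean of at least 5 TPM, where 3 members remain, and in fits of 2 groups. With the replicate block they were 0, 0 and 0; same-numbered embryos did not deviate together (12 correlations from -0.10 to 0.07), so the titles' numbers gave no pairing. Leaving out embryos gave 0 to 0, 0 to 1 and 0 to 1. Quantile normalization, median-ratio scaling, the pseudocount, the filter at 0.5 TPM and sample weights left the counts at 0, 1 and 1. Without a filter the centring runs over 39624 genes, most of them near 0, and no longer removes the shift.

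Of all genes tested 786, 992 and 698 were called when centred (55.7%, 44.4% and 35.4% higher), 4163, 610 and 4636 as deposited (96.9%, 34.4% and 1.55% higher) and 1539, 1080 and 1139 with protein-coding rescaling (86.7%, 59.3% and 14.5% higher). Directions that reversed, none of them called in either setting, were these. In cKO against control as deposited: Upf1 0.11, Upf2 0.14, Upf3b 0.23, Smg5 0.20, Smg8 0.19 and Trp53 0.18; without a filter 0.080, 0.11, 0.19, 0.16, 0.16 and 0.15; Smg9, -0.14 centred and untested there, 0.11 as deposited and 0.079 without a filter; with protein-coding rescaling Upf2 0.027, Upf3b 0.081, Smg5 0.058, Smg8 0.068 and Trp53 0.056; with quantile normalization Upf3a -0.028; with sample weights Upf3b 0.016. In dKO against cKO Upf2 stood at -0.038 as deposited and -0.00480 without a filter. Leaving out single embryos, the changes in cKO against control ran from -0.048 to 0.054 for Upf3a, -0.059 to 0.029 for Upf3b and -0.19 to 0.13 for Trp53, in dKO against control from -0.091 to 0.00483 for Smg6, and in dKO against cKO from -0.22 to 0.040 for Upf1. The causes were not tested. Depth is unknown, so precision rests on 4 embryos a group.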
